A study of Mus musculus with 12 samples.

Results

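Features over opposite-strand exons are annotated genes that lie on the other strand of the exons of a second gene, called the host here. To be taken, a feature of GENCODE M21 needed a single opposite-strand host holding at least 50% of its exon bases, with no second gene holding more than 10%. At least 80% of the overlap had to fall in host exons, and the mean level over the 12 libraries had to reach 1 CPM (counts per 1e6 gene counts, scaled between libraries). The rule found 543 features over 510 hosts, out of 55471 features counted, and 425 of the 543 had a protein-coding host. Their annotated types were led by 171 antisense RNAs, 123 protein-coding genes, 56 microRNA genes and 49 processed pseudogenes. A further 304 features of the same position were under 1 CPM, and 152 of those had no count.

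The study measured RNA of mixed cortex and hippocampus from adult male C57BL6JL mice aged 3 to 5 months. Mice were naive or were killed 90 min after maximal electroconvulsive stimulation (MECS), given as 85 mA for 1 s by ear clips and followed by generalized convulsions. Dounce-homogenized tissue of both kinds was irradiated with ultraviolet light at 400 mJ/cm2, input RNA was set aside from the lysate, and the remainder was precipitated with an antibody against U1-70K, which belongs to the U1 snRNP, a small nuclear ribonucleoprotein particle of the spliceosome. This gave 4 groups of 3 libraries, input and U1 of naive brain and input and U1 of brain after MECS. The libraries include no control precipitate, so a U1 to input ratio below or above 1 cannot be told apart from other differences in RNA recovery. The labels do not say whether a library is 1 mouse or a pool, and p-values measure the spread between these libraries, which may in part be technical.

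U1 snRNP pairs with 5′ splice sites at the start of introns, and it also binds along unspliced transcripts, where it restrains premature cleavage and polyadenylation. Spliced mRNA has lost its introns and with them the 5′ splice sites, while its 3′ untranslated region (3′ UTR) and coding exons stay in the mature molecule. An annotated feature opposite such an exon collects reads from the host when the strand of the counting is the reverse of that of the library, and reads of its own transcript otherwise. The kit marks strand, but how strand was handled in the counting was not stated with the files, so reads of the feature and of its host cannot be told apart from a single row.

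The levels of both strands were compared first. Of 534 features whose host also had a row, 466 had more reads per kilobase of exon than the host's own row. For protein-coding hosts this held for 386 of 424, with medians of 76.6 CPM per kilobase for the feature and 1.39 for the host. These counts lean toward the feature by selection, since features under 1 CPM were left out and host rows had no such floor. The feature over Slc32a1, the vesicular transporter for GABA, had a mean of 106 CPM against 2.36 for the Slc32a1 row, and the feature over Grin2b, an NMDA receptor subunit, had 119 against 27.8. These rows are read below as mature host RNA, by the rule that defined them, and each value is given under the feature's symbol with the host beside it. In 17 cases 2 features are each other's host (34 features, such as Jund with Gm11175 and Foxq1 with A530084C06Rik), and there each row is both a feature and the row of a host.

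Several features are annotated microRNA genes that lie on the opposite strand of a coding exon, 28 of the 56 wholly within host coding sequence. The host-strand sequence of the shared exon bases is printed for 4 features over 3 hosts (GRCm38), since it shows that the counted window is coding sequence of a receptor or a transcription factor. Gm22892 (ENSMUSG00000089263) lies over Grin2b and Gm25837 (ENSMUSG00000089544) over Grin2c, both subunits of the NMDA-type glutamate receptor. Gm44330 and Gm44450 lie over coding sequence of Adgrl1, an adhesion G protein-coupled receptor at synapses, at chr8:83929688-83929830 and chr8:83929464-83929556 with the host on the plus strand. Gm17180 lies over Hrh3, the histamine H3 receptor, and its printed stretch is chr2:180101168-180101305 with the host on the minus strand. Gm27516 lies over Foxf2, a forkhead transcription factor of brain pericytes, at chr13:31626446-31626543 with the host on the plus strand.
Adgrl1, Gm44330 window: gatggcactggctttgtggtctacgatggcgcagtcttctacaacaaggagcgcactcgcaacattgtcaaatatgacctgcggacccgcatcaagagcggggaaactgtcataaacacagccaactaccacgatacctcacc
Adgrl1, Gm44450 window: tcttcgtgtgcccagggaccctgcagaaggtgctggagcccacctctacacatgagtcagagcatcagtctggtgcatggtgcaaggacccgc
Hrh3, Gm17180 window: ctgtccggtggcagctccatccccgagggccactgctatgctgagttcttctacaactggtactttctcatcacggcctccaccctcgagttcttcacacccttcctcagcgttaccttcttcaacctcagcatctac
Foxf2, Gm27516 window: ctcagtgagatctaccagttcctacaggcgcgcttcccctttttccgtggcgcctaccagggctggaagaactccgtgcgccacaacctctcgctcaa

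Cdr1 lies wholly over the noncoding C230004F18Rik, at chrX:61184005-61185558 with the host on the plus strand, at a locus known for a circular RNA with many sites for the microRNA miR-7. The mature sequence of miR-7a-5p (RefSeq, GRCm38.p6), with its seed of bases 2 to 8 in capitals, is
mmu-miR-7a-5p: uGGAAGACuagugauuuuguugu
and the host-strand sequence opened as follows at chrX:61184005-61184164, with each match to that seed (GTCTTCC) in capitals.
C230004F18Rik, first 160 bases of the overlap: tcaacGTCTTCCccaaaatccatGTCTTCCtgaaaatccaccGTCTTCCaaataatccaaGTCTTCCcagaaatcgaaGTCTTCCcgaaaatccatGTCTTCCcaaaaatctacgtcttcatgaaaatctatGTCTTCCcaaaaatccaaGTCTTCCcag
This stretch held 8 matches and the whole overlap of 1554 bases held 79. Of the 71 other features with at least as many bases in 1 exon, 11 had any match in their first 1554 bases, and none had more than 1. A match is a description of the letters. Linear and circular RNA of the locus are not separated in the counts.

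Gene counts per library ranged from 704432 to 1962312, and reads that named no gene made up 98.2 to 98.6% of those listed. The 543 features had a median level of 35.5 CPM, with quartiles of 10.2 and 113 CPM, and 151 were over 100 CPM. They held 22.7 ± 0.757% of gene counts in naive input, 17.9 ± 2.43% in MECS input, 24.3 ± 1.59% in naive U1 and 21.8 ± 2.78% in MECS U1 (SD, n = 3 each). The highest by mean level was CT010467.1, a ribosomal RNA gene over the noncoding Gm42418, with a mean of 139045 CPM, followed by Gm37376 over the nuclear noncoding RNA Malat1 with 22235 CPM. Without these 2 the share was 5.81 to 7.02% in the 6 input libraries and 4.60 to 4.99% in the 6 U1 libraries, and the ranges did not overlap.

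Compared with input, U1 RNA held less of many of these features. In naive brain 105 of the 422 features tested were lower with U1 and 11 were higher at an adjusted p under 0.05. Over all features tested, 6.26% were lower and 4.19% higher (10.5% in either direction). In brain after MECS 81 of 421 were lower and 15 higher, against 5.21% and 3.3% over all features (8.51% in either direction). The median log2 change of the features was -0.21 in naive brain, beside 0.03 over all 10918 features tested, and -0.14 after MECS, beside 0.02 over 10791. The called falls ran from -2.32 to -0.49 in naive brain with a median of -1.20, and U1 and input libraries did not overlap in any of the 105. Groups failed to overlap in 174 of the 422 features, against 24.4% of all features, and in 152 of 421 after MECS, against 24.7%. The 121 features not tested in naive brain, with a median of 3.54 CPM, had too few counts. Taking each U1 library with the input of its own lysate as a block gave 24 higher features after MECS in place of 15. Over all 10791 features the same block gave 647 higher in place of 356. The higher counts were smaller without naive U1 replicate 1 or 3 (7 in naive brain each) and without MECS input replicate 3 (7 after MECS) or MECS U1 replicate 1 (8).

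The share of features lower with U1 rose with the level of the row, among these features and among all features alike. In naive brain 6.67% of the tested features under 10 CPM were lower, 12.5% from 10 to 50 CPM, 29.9% from 50 to 200 CPM and 47.3% over 200 CPM. The same classes over all features gave 0.915%, 2.598%, 10.7% and 25.1%. Features inside introns of the opposite strand gave 0%, 0.645%, 2.62% and 10.4%. At each level the exon features had the higher share, but under 10 CPM this was 1 feature of 15 tested. After MECS it held in the 3 classes above 10 CPM (6.78, 26.8 and 36.5% against 2.68, 7.84 and 19.0% over all features). Under 10 CPM 0 of 13 were lower after MECS, against 1.60% of all features.

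The part of the host that a feature covered went with its ratio. These classes, which need at least 80% of the overlap to lie in 1 kind of host sequence, were chosen after the values had been seen and are given as description. They also differ in level, with a median of 79.7 CPM over 3′ UTRs, 35.1 over coding sequence and 33.6 over 5′ UTRs. Mixed features had 54.2, those over noncoding exons of coding hosts 29.8 and those over noncoding hosts 8.80 CPM. The part of level in the contrast between classes was not tested. Over a host 3′ UTR, 57 of 141 features tested were lower in naive brain and 2 were higher, with a median log2 change of -0.45. Over coding sequence 19 of 62 were lower and 2 higher, with a median of -0.29. Features of mixed position had 25 lower and 5 higher of 97, with a median of -0.17. Over a 5′ UTR none of 18 was lower and 2 were higher, with a median of 0.25, and 5 of these 18 lay below 0. Over noncoding exons of protein-coding hosts 1 of 43 was lower (median 0.00), and over noncoding hosts 3 of 61 (median -0.03). After MECS the order was the same at both ends, with medians of -0.37 over 3′ UTRs (46 lower, 2 higher of 141) and 0.20 over 5′ UTRs (0 lower, 3 higher of 17).

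**Figure D1:**
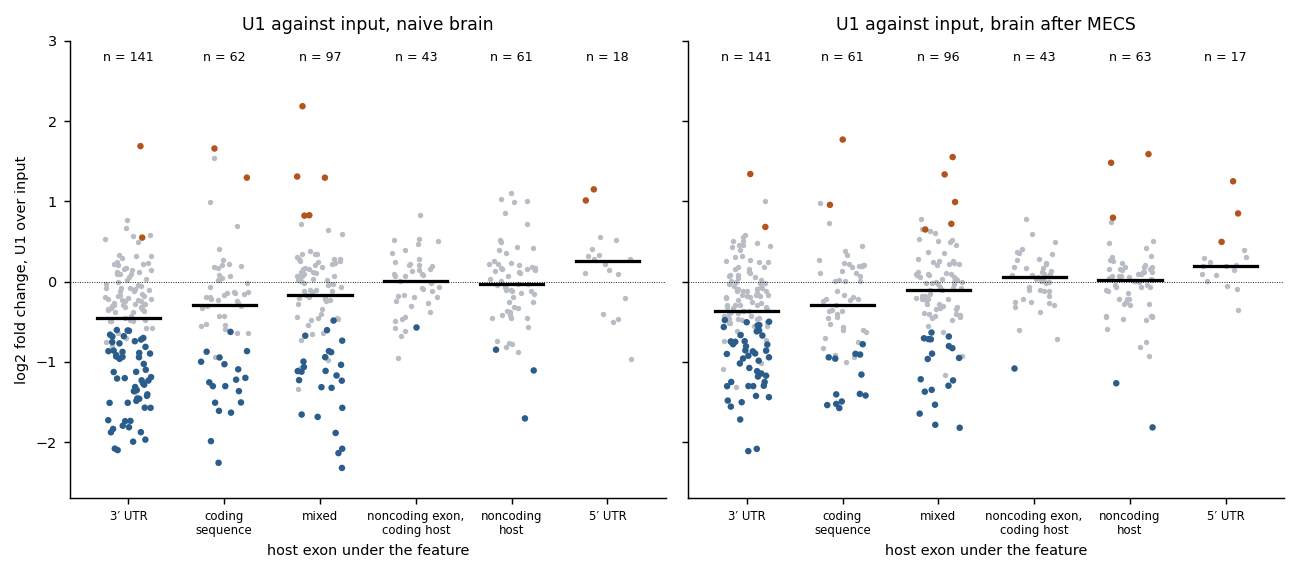
Log2 fold change of U1 over input (y axis) for each feature tested, by the kind of host exon under it (x axis), in naive brain and after MECS. Points are features, blue where lower and orange where higher at an adjusted p under 0.05, and black lines are medians: -0.45 over 3′ UTRs and 0.25 over 5′ UTRs in naive brain.

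The 3′ and 5′ UTR features were also compared within each lysate. The ratio of each U1 library to its own input (log2, pseudocount 0.5 CPM) had a median over 140 3′ UTR features between -0.81 and -0.26 in the 6 lysates, and over 17 5′ UTR features between -0.01 and 0.33. The 3′ UTR median was thus below the 5′ UTR median in 6 of 6. This and the shares below describe the same libraries in which the classes were chosen, and are no separate support. As shares of gene counts, the 159 3′ UTR features held 1.82 to 2.39% in input libraries and 1.39 to 1.65% in U1 libraries. The 22 5′ UTR features held 0.141 to 0.166% in input and 0.17 to 0.211% in U1. Neither pair of ranges overlapped. The 3′ UTR features lay at a median GC content of 46.8% against 62.3% for the 5′ UTR features. Across the 422 features tested the naive ratio had a Pearson r of -0.31 with the position along the host from 5′ to 3′ end and 0.20 with GC content. These correlations are across features that share libraries and are not tests.

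Features over Slc32a1, Ncald and Qdpr were among those with the largest falls. Gm14205, over Slc32a1 (chr2:158610910-158611820), had 239, 145 and 188 CPM in naive input and 33.8, 28.8 and 52.1 in naive U1. After MECS it had 204, 125 and 123 CPM in input and 48.6, 39.7 and 41.9 with U1. Every U1 library was below every input library, and the log2 change was -2.32 (SE 0.22, adjusted p = 5.40e-09) in naive brain and -1.78 (SE 0.21, adjusted p = 3.62e-06) after MECS. Gm28221, over the 3′ UTR of Ncald, a calcium sensor of neurons, had 477, 373 and 237 CPM in naive input against 86.3, 90.95 and 76.5 with U1, a change of -2.08 (SE 0.20, adjusted p = 7.68e-09). After MECS its values were 208 to 375 and 60.7 to 72.2 CPM. Gm42413, over Qdpr, an enzyme of tetrahydrobiopterin recycling and an oligodendrocyte marker here, had 543, 430.5 and 348 CPM against 101, 90.95 and 117, a change of -2.08 (SE 0.18, adjusted p = 1.10e-09). All 3 fell in both states, and no U1 library reached the lowest input library.

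Features over coding exons of several receptors were also lower with U1. Gm22892 over Grin2b had 187, 169 and 166 CPM in naive input and 66.5, 85.3 and 70.6 in naive U1, a log2 change of -1.20 (SE 0.18, adjusted p = 9.93e-06). Gm25837 over Grin2c had 88.3, 77.9 and 69.3 and 23.3, 23.1 and 28.6 CPM, a change of -1.63 (SE 0.24, adjusted p = 8.39e-06). Both U1 groups lay wholly below both input groups for each subunit, and after MECS the changes were -1.16 and -1.54 (adjusted p = 1.14e-04 and 1.63e-05). Gm17180 over Hrh3 had 435, 273 and 316 CPM in naive input against 109.6, 114 and 108 with U1, a change of -1.61 (SE 0.18, adjusted p = 5.32e-08). The 2 windows of Adgrl1 printed above changed alike, Gm44330 from 903, 672 and 646 to 278, 287 and 323 CPM (log2 change -1.30, SE 0.17, adjusted p = 8.08e-07) and Gm44450 from 369, 201 and 253 to 89.8, 102 and 123 CPM (log2 change -1.37, SE 0.19, adjusted p = 3.75e-06). They share a host and are not separate evidence. Gm26560 over Drd5, a dopamine receptor, had 32.6, 23.2 and 13.1 CPM against 5.83, 3.08 and 5.88, a change of -2.26 (SE 0.48, adjusted p = 0.00134). It was a low row of 5 to 38 counts, and without naive input replicate 1 the call was lost (log2 change -1.89, adjusted p = 0.0542).

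**Figure D2:**
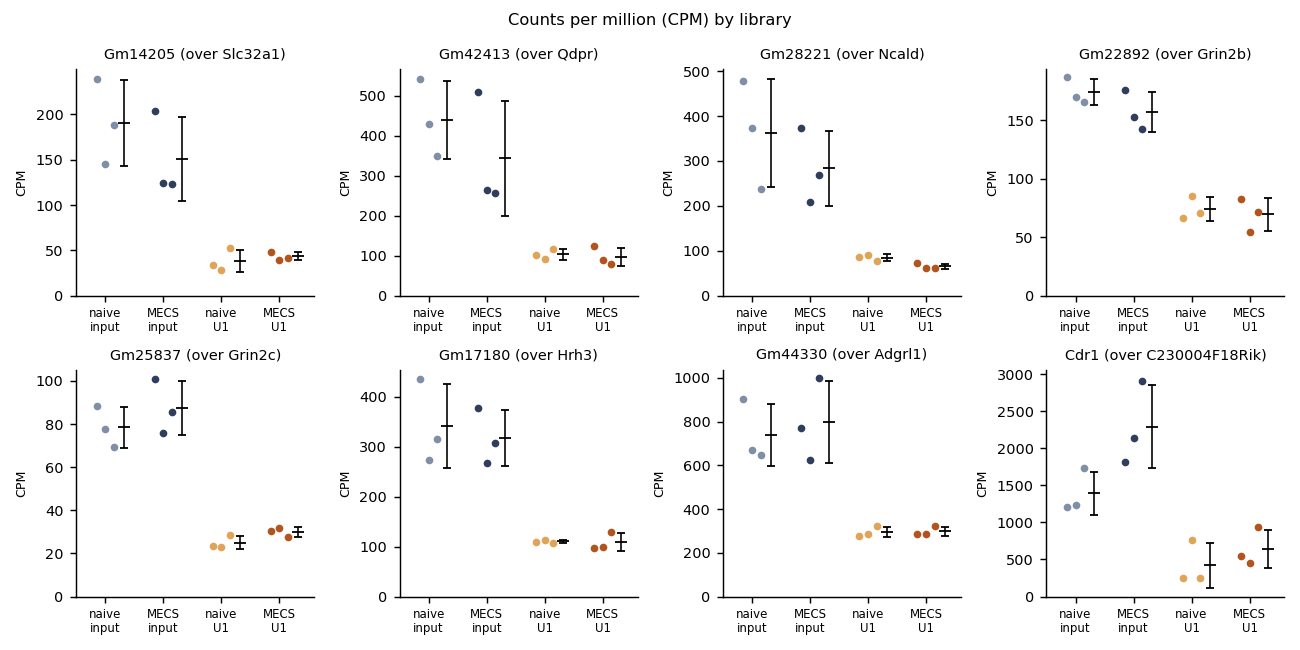
CPM (y axis, from 0) by library for 8 features named in the text with their hosts, in 4 groups of 3 libraries (x axis). Points are libraries and the bar beside each group is the mean ± SD. Each U1 library lies below each input library in all 8 panels.

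By the lists of pathway genes, the hosts were few. Of 4 features over presynaptic genes 1 fell in naive brain, over Slc32a1, and the other 3 did not pass the test. Of 3 postsynaptic features the 2 over Grin2b and Grin2c fell, while A830092H15Rik over the 5′ UTR of Nlgn1, a postsynaptic adhesion protein, had 338, 286 and 346 CPM against 373, 328 and 356 (log2 change 0.15, SE 0.16, adjusted p = 0.674). The feature over the 3′ UTR of Cacnb4, a calcium channel subunit, and both over Kif3c, a kinesin motor, also fell. Over RNA processing genes 1 of 3 fell in naive brain, Cox20 over Hnrnpu (log2 change -0.57, SE 0.17, adjusted p = 0.0228), which did not pass after MECS (log2 change -0.12, SE 0.14, adjusted p = 0.705). Its call in naive brain was lost with library size scaling and without naive input replicate 1 or 2 or naive U1 replicate 1 or 3. Of 10 features over nuclear noncoding RNAs 9 were tested, and none was called in naive brain. After MECS 1 was higher with U1, CT010467.1 over Gm42418, which is a ribosomal RNA gene and whose groups overlapped. The 10 include 4 over Kcnq1ot1, an imprinted nuclear transcript, with log2 changes from -0.26 to 0.19. Of 3 features over transcription factor and chromatin genes none was called in naive brain and 1 rose after MECS. Of 4 over hosts listed as intronless or single-exon 1 rose (Foxq1) and 1 fell (Jund) in naive brain. By annotation, and not by this list, 62 features had a host with 1 exon. Of the 36 tested in naive brain 2 were higher and 7 lower (19.4%), beside 4.19% and 6.26% of all features. The lists of energy metabolism, protein synthesis, ubiquitin, glucocorticoid response, astrocyte, microglia, endothelial, blood and choroid plexus genes had no host among the 543 features.

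The highest row over a protein-coding host was Gm20721, over Gnas, the gene of the stimulatory G protein subunit. It had 6616, 4713 and 4330.0 CPM in naive input and 1801, 2006 and 2360.1 in naive U1, a log2 change of -1.32 (SE 0.18, adjusted p = 3.34e-06), and -1.35 (SE 0.15, adjusted p = 3.03e-06) after MECS. Noncoding rows at high levels differed among themselves. Gm26953, over the nuclear noncoding RNA Miat, had 2573 to 3256 CPM in naive input and 2709 to 3243 with U1 (log2 change 0.03, SE 0.17, adjusted p = 0.947). Gm37376, over Malat1, had 15539, 15426 and 22610.3 CPM in naive input and 8883, 29304 and 9744 in naive U1, so that U1 replicate 2 was above the input libraries and the others below them (log2 change -0.16, SE 0.27, adjusted p = 0.809). Cdr1, over C230004F18Rik, was lower with U1 at 1211, 1238 and 1729 against 248, 767 and 248 CPM (log2 change -1.70, SE 0.25, adjusted p = 8.53e-06), and again replicate 2 was the highest U1 library. CT010467.1, the ribosomal RNA row, had 146551, 141005 and 162781 CPM in naive input and 155539, 163949 and 196617 with U1 (log2 change 0.22, SE 0.23, adjusted p = 0.663). After MECS it had 125360.0, 73020.1 and 60133 CPM in input and 147418, 120407 and 175755 with U1, and it was called higher although the groups overlapped (log2 change 0.80, SE 0.21, adjusted p = 0.0181).

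A host can carry features opposite its exons and others opposite its introns, which makes a comparison within 1 gene possible. In naive brain 65 hosts had both kinds tested. The exon features had the lower U1 to input ratio in 46 of the 65, with a median log2 change of -0.28 beside 0.06 for the intron features. After MECS it was 43 of 65, with medians of -0.22 and 0.07. The count of hosts was similar in MECS against naive, so it is not particular to U1 against input. There the exon features had the lower change in 43 of 63 hosts in input RNA (medians -0.07 and 0.09). In U1 RNA it was 41 of 64 (medians 0.06 and 0.11). Across the whole table, 2871 intron features had a median of 0.10 in naive brain, and 60 of them were lower and 146 higher. The count of hosts was chosen after the data had been seen, and the 2 kinds of feature differ in level.

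In Cacnb4 the 2 kinds differed. Its 3′ UTR feature A430018G15Rik had 555, 456 and 422 CPM in naive input and 179.6, 255 and 144 with U1, a log2 change of -1.28 (SE 0.18, adjusted p = 3.38e-06), whereas the median of its 2 intron features was 0.20. Bnip3, a mitochondrial protein of stress and mitophagy, had -1.66 for its exon feature and -0.24 for its intron feature. Iqsec1, an exchange factor for ARF GTPases at synapses, had -0.999 over coding sequence and -0.16 in the intron, and Nr2c2, a nuclear receptor, -1.06 and -0.03. Chn1, a Rac GTPase-activating protein of neurons, had both kinds low, at -1.32 and -1.21. Nlgn1, whose exon feature lies over the 5′ UTR, had 0.15 and 0.20.

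**Figure D3:**
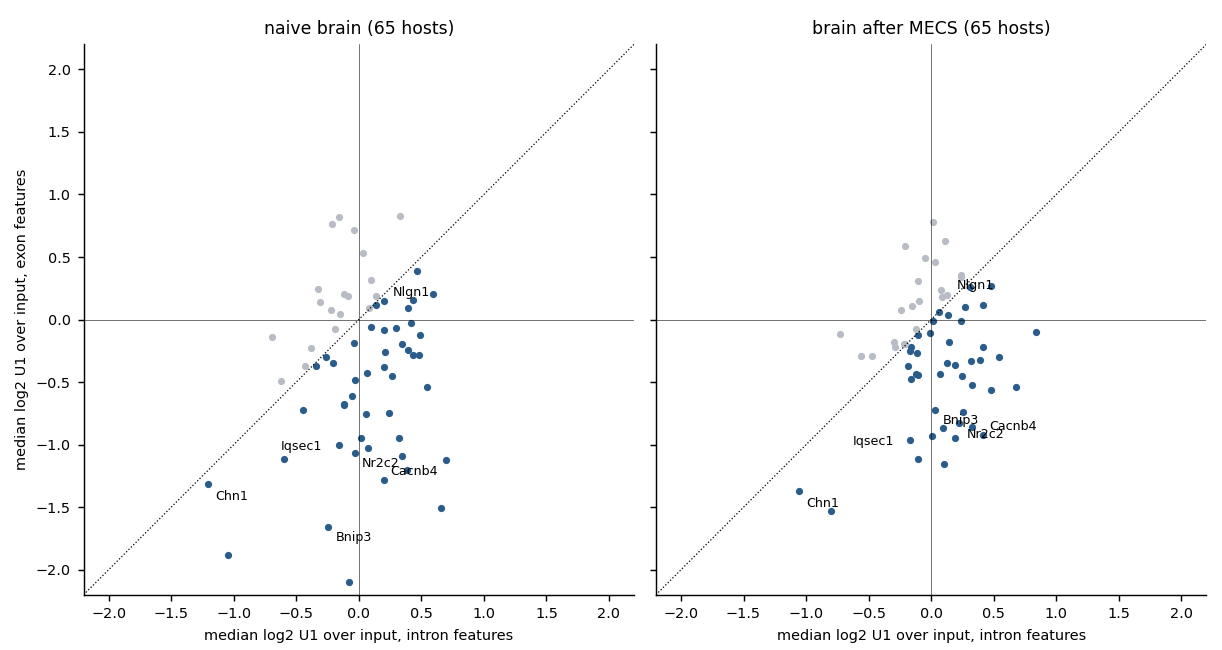
Median log2 U1 over input of the exon features (y axis) against that of the intron features (x axis) of the same host, 1 point per host, in naive brain and after MECS. Points below the dotted line of equality (blue) are hosts whose exon features had the lower ratio, 46 of 65 in naive brain and 43 of 65 after MECS.

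The features higher with U1 were fewer, 11 in naive brain and 15 after MECS. Gm11532, over Sp6, a zinc finger transcription factor, had 12.9, 17.8 and 16.2 CPM in naive input and 45.5, 54.5 and 107 with U1, a log2 change of 2.18 (SE 0.31, adjusted p = 5.94e-06). Foxq1, a forkhead transcription factor gene, and its opposite-strand partner A530084C06Rik rose together, by 1.69 and 1.15 in naive brain (adjusted p = 3.50e-05 and 4.97e-04). A530084C06Rik had 92.6, 53.3 and 90.1 CPM in naive input and 108, 162 and 250.4 with U1. Since each is the host of the other, the 2 are 1 locus. Gm27516, over Foxf2, had 26.6, 13.7 and 17.7 CPM against 30.3, 48.3 and 63.01 (log2 change 1.29, SE 0.30, adjusted p = 0.00337). Gm11626, over the interferon-induced Ifi35, had 12.00, 10.9 and 20.02 CPM against 44.3, 40.1 and 53.8 (log2 change 1.66, SE 0.31, adjusted p = 2.50e-04), and Gm16567, over the complement protease gene C1s1, had 12.00, 9.57 and 14.6 against 23.3, 31.9 and 34.4 (log2 change 1.31, SE 0.34, adjusted p = 0.00961). Gm20412, over the 3′ UTR of the transglutaminase gene Tgm2, rose by 0.55 in naive brain and 0.68 after MECS (adjusted p = 0.027 and 0.00382). In naive U1 the rows over Sp6, Foxq1, Foxf2 and Tgm2 were highest in replicate 3. The calls on C1s1 and Tgm2 in naive brain did not hold without that library (log2 changes 1.18 and 0.40), and that on Tgm2 was also lost without naive input replicate 2 or 3 and with other filters on low counts. The call on Foxf2 after MECS was lost without MECS input replicate 3 (0.74).

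Markers of cell types were read as the summed CPM of the counted features opposite each marker gene. Among the 543 features only those over Slc32a1 and Qdpr have a marker gene as host. Most of the features summed here therefore lie outside the 543. For neurons 7 of 14 marker genes had such a feature, and their sum was 5508 to 6963 CPM in naive input, 2304 to 3095 in naive U1, 5269 to 7358 in MECS input and 3070 to 3588 in MECS U1. For mural and smooth muscle cells it was 7 of 19 genes, with sums of 276 to 474 CPM in naive input, 1559 to 2595 in naive U1, 333 to 481 in MECS input and 1427 to 2186 in MECS U1. For endothelium it was 3 of 21 genes, with 823 to 987, 1381 to 2421, 655 to 1179 and 1543 to 2549 CPM in the same order. For astrocytes it was 3 of 18 genes, with 4402 to 6626 CPM in naive input, 1149 to 1385 in naive U1, 3840 to 5858 in MECS input and 1586 to 1637 in MECS U1. For oligodendrocytes it was 3 of 19, with 399 to 591, 134 to 155, 313 to 564 and 131 to 164 CPM in that order. For microglia the 1 gene of 16, Cx3cr1, had 0.916 to 16.4 CPM over the 12 libraries, the choroid plexus and ependyma gene Tmem212 had 0 to 7.33, and the blood gene Alas2 was at 0 in all. In none of the 5 lists of neurons, astrocytes, oligodendrocytes, endothelium and mural cells was the sum of a gene at 0. The summed neuronal, astrocyte and oligodendrocyte features were thus lower, and the summed endothelial and mural features higher, in every U1 library than in every input library. In the marker genes' own rows the neuronal, astrocyte and oligodendrocyte sums were also lower in every U1 library than in every input library (575 to 1036 against 1536 to 2569 CPM for neurons). The own rows of mural genes overlapped, at 521 to 668 CPM in naive input and 658 to 739 in naive U1, and at 601 to 630.3 in MECS input and 592 to 633 in MECS U1. Those of endothelial genes were higher with U1 within each state (331 to 395 against 436 to 597 CPM in naive brain, 303 to 337 against 382 to 429 after MECS), but MECS U1 overlapped naive input. The part of these markers in the falls and rises above was not tested. The row named Tagln, a smooth muscle gene that is itself 1 of the 543 features (over Gm48529), had overlapping values. They ran from 71.1 to 77.8 CPM in naive input and 75.8 to 89.9 with U1. By the reading used here, that row stands for RNA of Gm48529 and does not show the level of Tagln mRNA. The Gm48529 row, opposite Tagln, was denser, at 220 against 39.4 CPM per kilobase, with 76 to 1766 counts per library.

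Naive and MECS brain, which share no libraries, were then set side by side. Of 411 features tested in both, 77 were lower in both, 7 were higher in both and none was called in opposite directions. This is 74.0% of the 104 lower in naive brain and 95.1% of the 81 lower after MECS. Across the 411 features the log2 ratios of the 2 states had a Pearson r of 0.83, beside 0.71 for all 10232 features tested in both. The 85 of 104 naive falls that were smaller after MECS were chosen by the naive test, so their size is no test of a difference between states. That difference was tested as an interaction over the 12 libraries. None of the 449 features tested passed, nor did any of all 12184 (0%), with edgeR, and DESeq2 and limma-voom also called none of the 449. At an unadjusted p under 0.05 there were 27 of the 449 (6.01%) and 383 of the 12184 (3.14%).

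**Figure D4:**
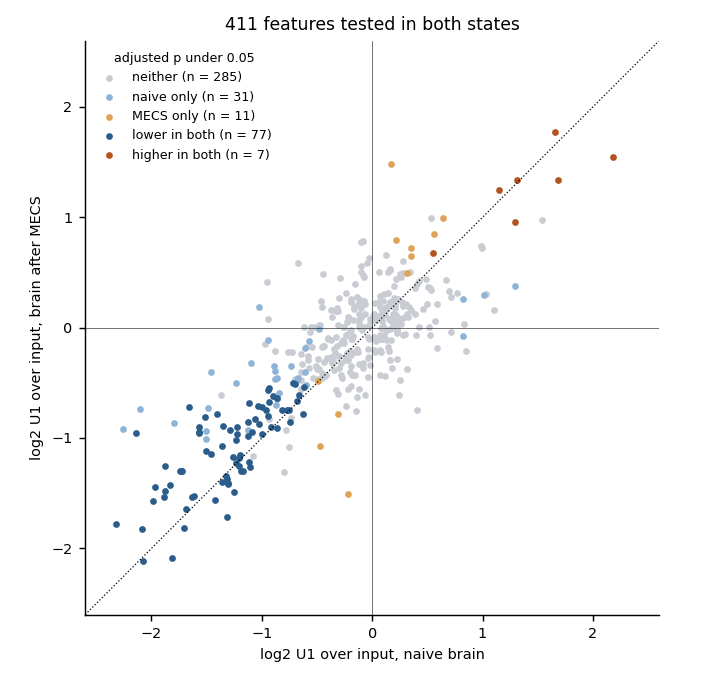
Log2 U1 over input in naive brain (x axis) and after MECS (y axis) for the 411 features tested in both, coloured by which test called them at an adjusted p under 0.05. The dotted line is equality. 77 features are lower in both states and 7 are higher in both.

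MECS against naive gave few calls among these features. In input RNA 2 of 422 were lower and none was higher with edgeR, and all features gave 0.606% in either direction (0.51% higher, 0.0961% lower). At an unadjusted p under 0.05 there were 54 features of the 422 (12.8%), beside 9.66% of all features. In U1 RNA 2 of 425 were higher and none lower, and all features gave 0.386% (0.332% higher, 0.0539% lower), with 50 of the 425 (11.8%) at an unadjusted p under 0.05, beside 10.5% of all features. DESeq2 called 1 higher and 1 lower in input and 2 higher and 1 lower in U1, and limma-voom 2 higher and 2 lower in input and 1 higher in U1. Groups did not overlap for 65 features in input and 77 in U1, against 15% and 15.2% of all features. The medians were -0.08 in input and 0.02 in U1. Each of the 4 calls was lost under at least 2 of the alternatives, as given with the values below.

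Mir3544 and Mir337 are microRNA genes on opposite strands of the same bases at chr12:109585813-109585873 (GRCm38), within an imprinted cluster of noncoding RNAs and microRNAs. Their hairpins pair with themselves, and mature microRNAs from both strands are annotated (RefSeq, GRCm38.p6). The seeds, bases 2 to 8, are in capitals, and the 4 differ from each other.
mmu-miR-337-5p: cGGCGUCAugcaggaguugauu
mmu-miR-337-3p: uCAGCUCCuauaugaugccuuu
mmu-miR-3544-5p: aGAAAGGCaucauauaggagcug
mmu-miR-3544-3p: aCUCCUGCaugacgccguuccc
The Mir3544 row had 38.6, 45.1 and 37.7 CPM in naive input and 15.1, 17.4 and 10.7 in MECS input, a log2 change of -1.53 (SE 0.30, adjusted p = 0.00838). In U1 RNA it had 50.1, 41.1 and 43.7 CPM in naive brain and 46.4, 31.2 and 42.5 after MECS (log2 change -0.20, SE 0.23, adjusted p = 0.818). The MECS input libraries were thus low and the other 3 groups overlapped each other. The log2 change of U1 against input after MECS was 1.48 (SE 0.28, adjusted p = 0.0011). The interaction did not pass with edgeR (log2 1.31, adjusted p = 0.997). The row holds 11 to 80 counts per library and the Mir337 row held none. Reads of 100 bp from total RNA do not measure mature microRNAs. Without naive input replicate 2 or MECS input replicate 3 the fall was -1.41 or -1.36 with an adjusted p of 0.0534 or 0.0703, and over its 14 alternatives the adjusted p ran from 0.00244 to 0.0703.

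Gm26571, over coding sequence of Riox1, a nucleolar histone demethylase and ribosome oxygenase, had 48.9, 32.8 and 33.9 CPM in naive input and 21.9, 13.7 and 13.6 in MECS input, a log2 change of -1.27 (SE 0.30, adjusted p = 0.0373). With U1 it had 12.8 to 24.5 CPM in naive brain and 14.4 to 23.4 after MECS. The input groups did not overlap and the U1 groups did. The row has 14 to 57 counts, and the call was lost under 8 of 15 alternatives, among them DESeq2 (adjusted p = 0.0866) and the removal of naive input replicate 1 (0.317), 2 or 3, or of MECS input replicate 2 or 3.

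In U1 RNA the 2 rises were over Pcdh8 and Bnip3. Gm9748, over Pcdh8, a protocadherin of synapses whose gene responds to neuronal activity, had 44.3, 27.7 and 23.5 CPM in naive U1 and 82.8, 59.99 and 86.96 in MECS U1, a log2 change of 1.26 (SE 0.25, adjusted p = 0.0153). In input it had 147, 109 and 115 CPM in naive brain and 391, 117 and 182 after MECS, and the groups overlapped (log2 change 0.83, SE 0.25, adjusted p = 0.116). It was below input in both states, with log2 changes of -1.99 in naive brain and -1.58 after MECS, and the interaction was 0.42 (adjusted p = 0.997). The call in U1 was lost without naive U1 replicate 3 or MECS U1 replicate 1 or 3, with adjusted p-values up to 0.127. The input difference passed under 5 of 15 alternatives, with the largest log2 change, 1.17, without MECS input replicate 2. Gm45507, over Bnip3, had 48.97, 62.2 and 58.8 CPM in naive U1 and 141, 107 and 86.96 in MECS U1 (log2 change 0.91, SE 0.20, adjusted p = 0.0408), while input stayed at 125 to 229 and 167 to 219 CPM (log2 change -0.04, SE 0.19, adjusted p = 0.965). This call was lost with limma-voom, with the replicate numbers as a block (adjusted p = 0.0806) and without naive U1 replicate 1 or 3 or MECS U1 replicate 1 (up to 0.417).

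Other activity-regulated hosts had values in the same samples. Gm45346, over the 5′ UTR of Bdnf, a neurotrophin gene induced by neuronal activity, had 15.4, 19.1 and 18.5 CPM in naive input and 50.5, 10.99 and 25.3 in MECS input. With U1 it had 13.99, 12.8 and 10.9 and 52.4, 13.2 and 38.2 CPM (log2 change 1.42, SE 0.39, adjusted p = 0.111). MECS replicates 1 and 3 were above the naive libraries and replicate 2 was below their range in input and within it in U1, and without MECS U1 replicate 2 the U1 difference passed (log2 1.81, adjusted p = 0.00331). Gm9748 was lowest in MECS replicate 2 in both fractions as well. Gm11175, over Jund, an AP-1 transcription factor gene, had 914, 581 and 678 CPM in naive input, 923, 400.3 and 489 in MECS input, 312, 312 and 485 in naive U1 and 654, 419.9 and 585 in MECS U1. It was lower with U1 in naive brain (log2 change -0.95, SE 0.18, adjusted p = 3.99e-04) and overlapped input after MECS (log2 change -0.11, SE 0.22, adjusted p = 0.837), with an interaction of 0.84 (adjusted p = 0.997). AC137853.2, over Dusp5, a phosphatase of MAP kinases, had 17.5 to 22.6 CPM in MECS input against 13.7 to 30.9 in naive input.

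**Figure D5:**
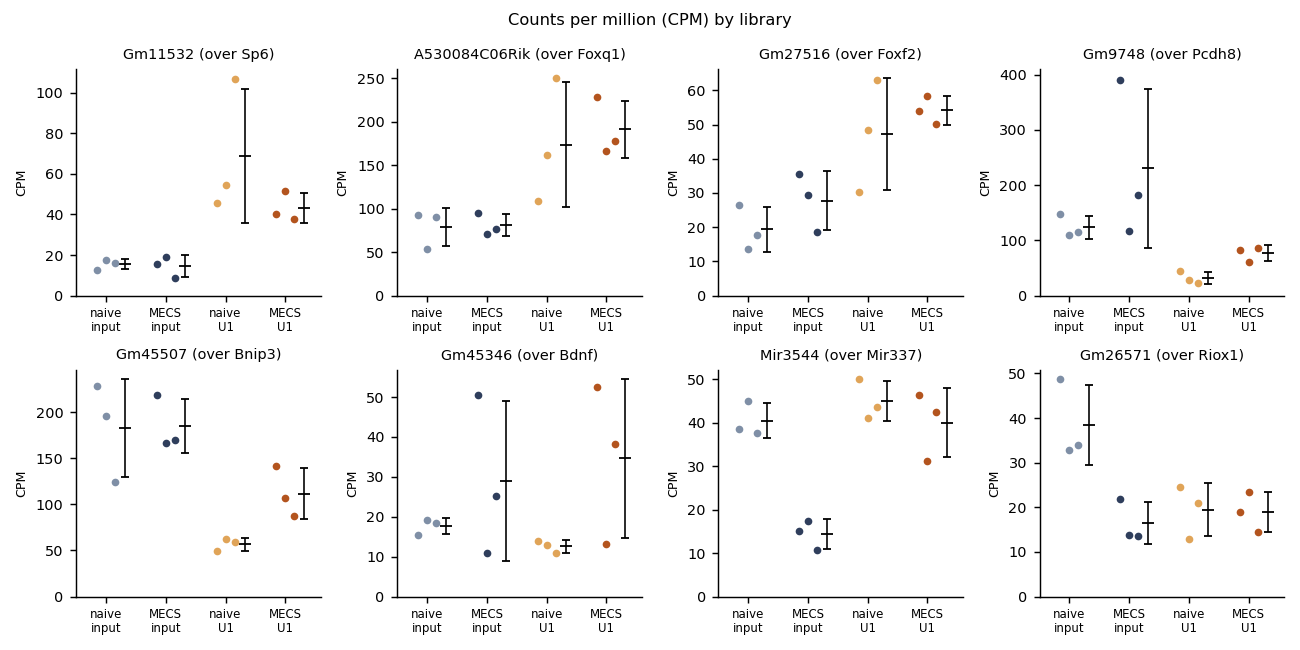
CPM (y axis, from 0) by library for 3 features higher with U1 in both states (over Sp6, Foxq1 and Foxf2) and 5 named in the comparison of MECS with naive brain, in 4 groups of 3 libraries (x axis). Points are libraries and the bar beside each group is the mean ± SD. The MECS input libraries of Mir3544 lie between 10.7 and 17.4 CPM, below the other 9 libraries.

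The thresholds of the rule fall between these features. Gm13271 was the lowest feature taken, at 1.04 CPM, and Med10, at 0.971 CPM, was the highest left out by level. Gm10252 had 50% of its exon bases inside Ftl1, and Mybph had 49.9% inside Adora1. Nrarp had 80.1% of its overlap in exons, and Gm16140, over Meis1, had 79.9%. Of the 543, 20 hosts carried 2 or more features (53 features in all). The 2 over Kif3c fell together in naive brain (-0.90 and -1.11), and the 4 over Kcnq1ot1 lay between -0.26 and 0.19, so that features of 1 host had close values in these cases. The 2 over Rhbdd2 did not, at -0.87 and 0.50.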

How the data were processed

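RNA of input lysate and of U1-70K precipitates was sequenced from naive and MECS mouse brain (stranded total RNA with rRNA depletion, 100 bp single-end, per the labels' protocols). The authors deposited raw read counts per Ensembl gene, and the submitters' processing notes name Trimmomatic 0.39, FastQC, HISAT2 2.2.0, StringTie 2.1.3, Salmon 1.4, DESeq2 and mm10, with no role for each. Counter, strand setting and annotation are not stated. Rows naming no gene (98.2 to 98.6% of reads listed) were left out. Gene counts per library were 704432 to 1962312.

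Features were placed with GENCODE M21 (GRCm38). Each comparison was fitted on its 6 libraries, and the interaction on 12, with edgeR 4.0.16 (TMM, filterByExpr, quasi-likelihood test, Benjamini-Hochberg adjustment over all features tested, threshold 0.05); DESeq2 1.42.0 and limma 3.58.1 were alternatives. CPM is relative to TMM-scaled gene counts. The script was tested on simulated data. Members and lists were chosen with earlier results of these data known; host region classes and the exon and intron count were added after the data were seen. Named were the 10 features with the highest mean CPM, up to 12 called per direction and comparison by log2 change without overlap of groups, up to 4 per list, 8 by level with a tested intron feature of the same host, and those beside the thresholds; not all are printed, and the features over Adgrl1 and Rhbdd2 were picked after their values were seen. U1 and input libraries with the same title prefix come from 1 lysate, and deviations from group means correlated by 0.02, -0.10 and -0.02 in naive brain and 0.11, 0.22 and 0.12 after MECS. Sam68 precipitates were not used here. Some members named by the rule are not reported here.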

Additional observations from a re-analysis of the deposited data

How the results depend on the processing

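No called result of the named features changed sign under the alternatives run. In U1 against input these were 37 of 116 calls in naive brain and 23 of 96 after MECS, and the signs of the other calls were not followed. Of the named features that were not called, 10 values changed sign with 1 library left out. Among them were Gm37376 in naive U1 against input (-0.89 to 0.10) and Gm26953 there (-0.05 to 0.09). Others were Gm45507 (-0.26 to 0.16) and AC137853.2 (-0.28 to 0.29) in MECS against naive input. In U1 against input, calls lower in naive brain ranged from 76 to 106 and higher from 7 to 10 with 1 library left out, against 105 and 11. After MECS lower ranged from 60 to 83 and higher from 7 to 15. Calls over all features, in either direction, ranged from 711 to 1254 in naive brain, against 1141. After MECS they ranged from 613 to 894, against 918. Features over 3′ UTRs called lower ranged from 41 to 59 and from 33 to 48, and hosts with the exon feature below the intron feature from 45 to 47 and from 41 to 48. Requiring 80% overlap with the host left 52 lower after MECS. MECS against naive rests on few calls. In input, higher features numbered 5 with library size scaling, 4 without a filter, 4 with a filter of 1 CPM, 1 with DESeq2, 2 with limma-voom and 1 without mitochondrial, ribosomal and small RNA genes. Lower ones numbered 1 with DESeq2, without those genes, with all 12 libraries in 1 fit or with 80% overlap. With 1 library left out, higher ranged from 0 to 3 and lower from 0 to 11. The 11 of 428 came without MECS input replicate 1, where all 10765 features gave 114 calls, 63 of them higher. Higher calls over all features moved as well, from 53 in the main fit to 116 of 10402 with library size scaling. They were 95 of 30833 without a filter, and 16 to 84 with 1 library left out. In U1, higher features numbered 9 without a filter, 6 with a filter of 1 CPM, 5 with 12 libraries in 1 fit, 1 with limma-voom and 1 with 80% overlap, and lower ones 2 without a filter and 1 with library size scaling, the filter of 1 CPM, DESeq2 or 12 libraries. With 1 library left out, higher ranged from 0 (without MECS U1 replicate 1) to 12 (without naive U1 replicate 2) and lower from 0 to 2. For all features the higher calls in those same fits were 12 of 11671 and 189 of 11673, beside 37 in the main fit. Without a filter they were 133 of 32337. The share of gene counts, given for input of naive and MECS brain and then for U1 of naive and MECS brain, was 5.92, 7.37, 4.56 and 5.33% with 80% overlap, and 9.13, 10.1, 7.46 and 8.17% without mitochondrial, ribosomal and small RNA genes. It was 21.1% in naive input with 95% of the overlap exonic. With 1 library left out it ranged from 22.3 to 22.9%, 16.5 to 18.6%, 23.4 to 24.9% and 20.4 to 23.2%. The causes of these changes were not tested.

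With the lysate as a replicate block, higher features after MECS numbered 24, beside 647 of all 10791 features. Naive and MECS libraries share only a number, and with that replicate block input gave 4 higher and 8 lower and U1 gave 1 higher and 0 lower. All features then gave 142 calls in input (104 higher) and 35 in U1 (30 higher).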
